A study of Saccharomyces cerevisiae with 14 samples.

Results

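The comparison set the wild-type budding yeast (Saccharomyces cerevisiae) arrays of the JHD2 deletion experiment, whose mating genes were those of MATalpha cells (3 arrays), against those of the SET1 experiment, whose mating genes were those of MATa cells (2 arrays). These 5 arrays, of 14 in the series, were chosen by their labels, and all probe sets of S. cerevisiae were analysed. The study as a whole profiled strains with a deletion or overexpression of JHD2, which encodes a demethylase of lysine 4 of histone H3, and a deletion of SET1, which encodes the methyltransferase of the same residue, each beside a wild type of its own. The labels give both wild types 1 genotype, with his3∆1, le2∆0 (spelled so there), lys2∆0 and also ura3∆0 as altered markers, and TRP+, MET15+ and ADE+ as intact ones, and they give no mating type. The names MATalpha type and MATa type therefore rest on the expression of the mating genes, described below.

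The other arrays served as a second look at the same contrast. The jhd2 deletion (3 arrays) carries jhd2::KanMX on the marker alleles of its wild type, and the set1 deletion (2 arrays) carries set1::KanMx with his3-1, leu2-0, met15-0 and ura3-0. The overexpression strain (2 arrays) carries jhd2∆::KanMx and a JHD2 construct together with his3-1, leu2-0, lys2-0 and ura3-0, and its wild type (2 arrays) has the genotype label of the other wild types. The LEU2 signal was high in both of these groups, as given below, so that wild type may not be the same strain as the others. All cultures were diluted to an optical density at 600 nm of 0.2 and grown at 30 °C for 3 to 5 h, to a density of 0.6 to 0.7. Which medium was used is not stated in those labels. The labels call the replicates biological.

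Haploid budding yeast has a mating type set by the genes at the MAT locus on chromosome III, and silent copies of both kinds of genes lie at the HML and HMR cassettes. In MATalpha cells the regulator alpha1 switches on the alpha-specific genes and the regulator alpha2 keeps the a-specific genes off. In MATa cells neither regulator is made, the a-specific genes are on and the alpha-specific genes are off. Each type secretes its own pheromone and carries the receptor for the pheromone of the other, while the G protein and MAP kinase cascade behind the receptors are common to both types, several of their genes being shut off in diploids.

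Signals are MAS5 intensities per probe set on a common scale, with trimmed means of 500.2 to 500.3 on every array. Background was read from the fission yeast probe sets of the same array, whose 95th percentile was 8.08 to 9.10 on the MATalpha-type arrays and 9.47 and 11.5 on the MATa-type arrays. Over the tested genes, the correlation of log2 signals was 0.969 to 0.989 between MATalpha-type arrays and 0.958 between the MATa-type arrays, and 0.934 to 0.967 across the groups. The MATa-type arrays were therefore no more alike to each other than MATa-type replicate 1 was to the 3 MATalpha-type arrays, at 0.961 to 0.967. MATalpha-type replicate 3 also had a 3'/5' signal ratio of control genes of 1.499 on the log2 scale, against 0.54 and 0.60 on the other MATalpha-type arrays and 0.85 and 0.65 on the MATa-type arrays. Experiment and mating type coincide here, so effects of the 2 cannot be told apart in any value below.

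Of 5415 tested genes, 21 differed between the wild types in limma at a Benjamini-Hochberg adjusted p under 0.05, which is 0.388% of the genes. Of these, 8 (0.148%) were higher and 13 (0.24%) lower in the MATalpha type, and the median log2 difference over all genes was 0.0035. Quantile normalization gave 9 higher and 9 lower. An unadjusted p under 0.05 was reached by 730 genes (13.5%). All 15 tested members of the a-specific, alpha-specific and mating-cassette lists were among the 21, and the 6 others were YNL146W, YNL146C-A, SRX1, PCK1, GEX1 and ADH2. Among 112 genes with an absolute log2 difference over 1, 20 passed the test. Without MATa-type replicate 1 the count was 224 (4.14%), of which 143 were higher (2.64%), 81 lower (1.5%) and 20 shared with the 21, and without MATalpha-type replicate 3 it was 25, of which 14 were higher. Over the other 12 arrays left out in turn the count was 17 to 23.

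**Figure D1:**
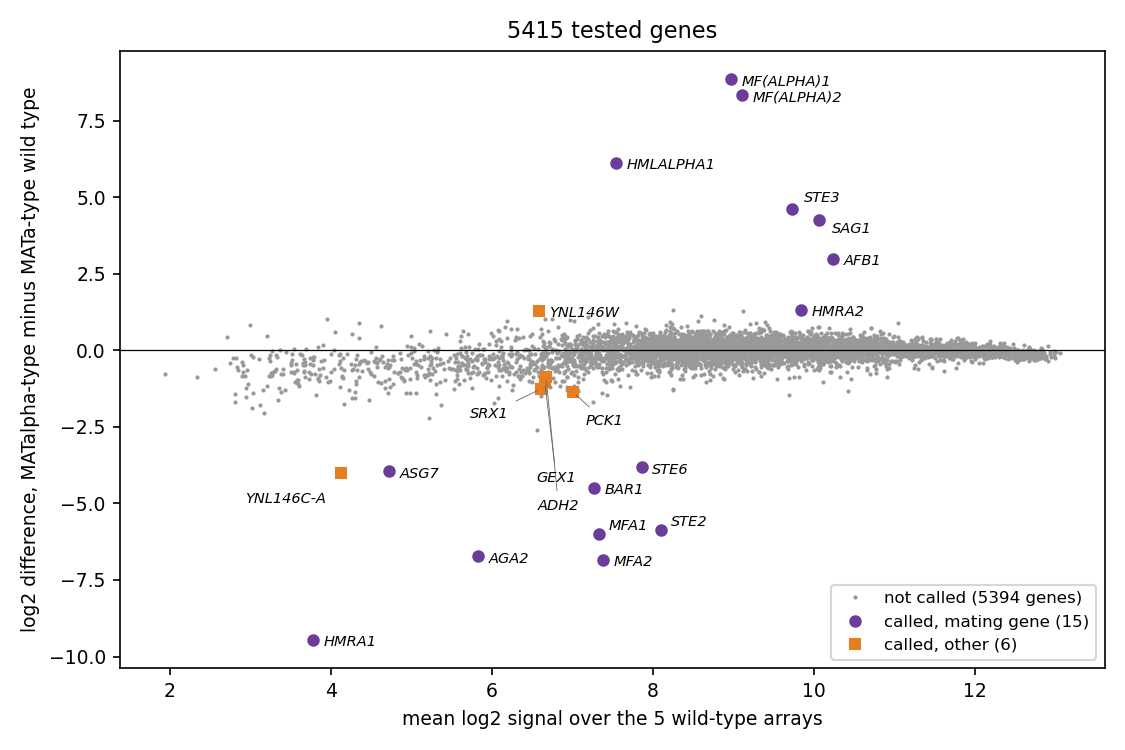
Log2 difference (MATalpha-type minus MATa-type wild type) of each of the 5415 tested genes against its mean log2 signal over the 5 wild-type arrays, with the 15 called mating genes as purple circles, the 6 other called genes as orange squares and the rest as grey points. Except HMRA2, at 1.32, the mating genes and YNL146C-A lie apart from the other points.

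The alpha-specific genes were high in the MATalpha type and low in the MATa type. Their levels give the groups their names and are a description only, and in these bulk cultures fewer cells of a type and less RNA per cell cannot be told apart. MF(ALPHA)1 (YPL187W), the main gene for the alpha-factor precursor, had signals of 5786, 5519.9 and 6343 in the MATalpha-type wild type, against 13.4 and 11.8 in the MATa-type wild type. The signals on the MATa-type arrays lay just above background, and the log2 difference was 8.87 ± 0.12 (SE, n = 3 against 2), or 467-fold. MF(ALPHA)2 (YGL089C), the second alpha-factor gene, gave 5044, 5011 and 6721 in the MATalpha type and 15.3 and 19.4 in the MATa type, a log2 difference of 8.33 ± 0.16.

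STE3 (YKL178C), which encodes the receptor for a-factor, had signals of 3059.6, 2950.4 and 3145 in the MATalpha type, against 114 and 133 in the MATa type, a log2 difference of 4.63 ± 0.11. SAG1 (YJR004C), the cell-surface alpha-agglutinin, gave 3335, 3364 and 3776 in the MATalpha type and 187 and 179 in the MATa type, a log2 difference of 4.25 ± 0.11. Both genes stayed above background in the MATa type. AFB1 (YLR040C), which encodes a barrier protein against a-factor, had 2760.3, 2724 and 2829.8 in the MATalpha type, against 335 and 361 in the MATa type, and its log2 difference of 2.99 ± 0.11 was the smallest of the 5.

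The a-specific genes ran the opposite way in all 7 cases. MFA1 (YDR461W), 1 of the 2 genes for a-factor, had signals of 25.6, 27.3 and 39.8 in the MATalpha-type wild type, against 1892 and 2021 in the MATa-type wild type, a log2 difference of -6.01 ± 0.25. MFA2 (YNL145W), the other a-factor gene, gave 19.2, 24.9 and 32.6 in the MATalpha type and 2934 and 2797 in the MATa type, a log2 difference of -6.84 ± 0.24. STE2 (YFL026W), the receptor for alpha-factor, gave 42.02, 50.9 and 73.6 in the MATalpha type and 3355 and 2944 in the MATa type, a log2 difference of -5.86 ± 0.27. All 3 genes stayed above background on every MATalpha-type array, and for each the groups lay more than 4 log2 units apart.

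STE6 (YKL209C), the transporter that exports a-factor, had 103, 71.7 and 70.9 in the MATalpha type against 1095 and 1187 in the MATa type (-3.82 ± 0.20). BAR1 (YIL015W), the secreted protease that degrades alpha-factor, had 35.2, 50.4 and 50.2 in the MATalpha type against 1029 and 966 in the MATa type (-4.48 ± 0.22). Both genes stayed above background on every MATalpha-type array, and the groups did not overlap. AGA2 (YGL032C), the binding subunit of a-agglutinin, had 9.28, 5.36 and 13.7 in the MATalpha type against 831 and 1047 in the MATa type (-6.73 ± 0.48), and ASG7 (YJL170C), which dampens pheromone signalling, had 12.3, 5.71 and 9.81 in the MATalpha type against 116 and 163 in the MATa type (-3.96 ± 0.46). For AGA2 and ASG7, 1 of the 3 MATalpha-type arrays was below background.

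**Figure D2:**
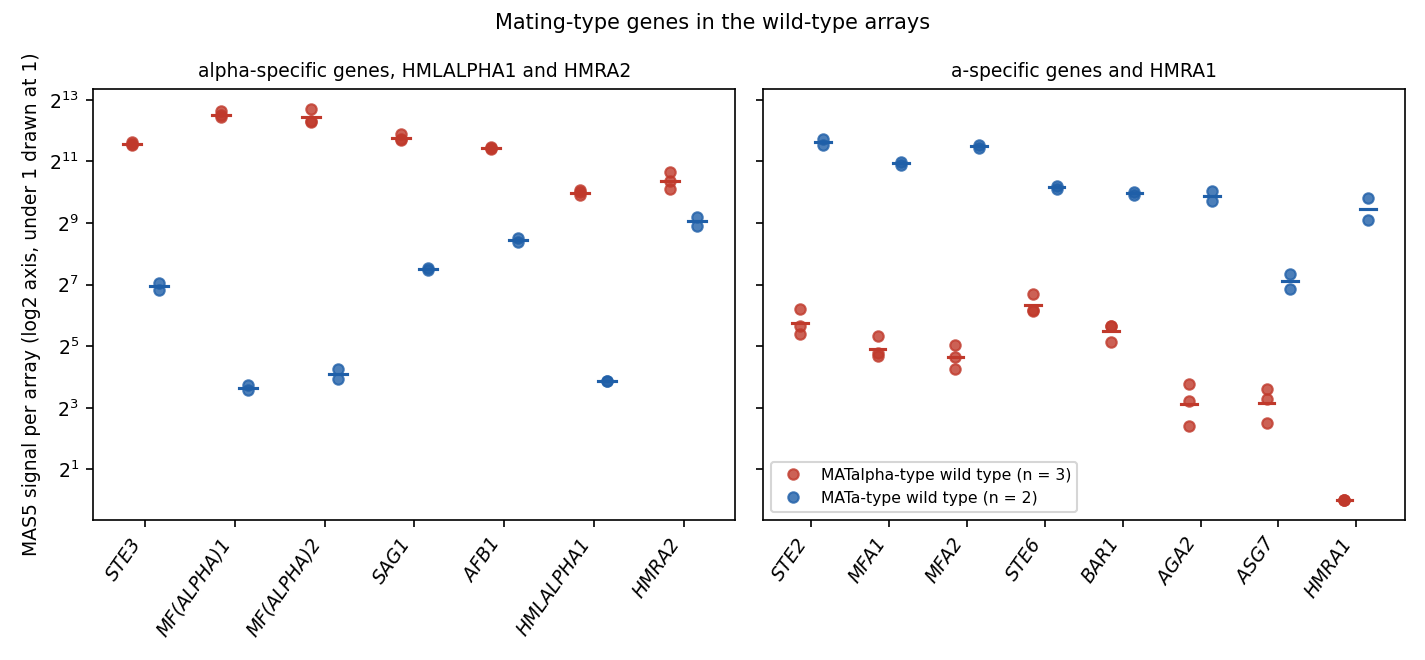
MAS5 signal (log2 axis, values under 1 drawn at 1) of the mating-type genes on each wild-type array, with MATalpha-type arrays in red left of MATa-type arrays in blue and a bar at the mean of the log2 values. The groups do not overlap for any of the 15 genes, and HMRA2 has the smallest distance between them.

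The probe sets of the mating cassettes showed the same split. The probe set named HMLALPHA1 (YCL066W) also reads the identical alpha1 gene at MAT, and it gave 1022, 1068 and 952 in the MATalpha type, against 14.5 and 14.8 in the MATa type, a log2 difference of 6.11 ± 0.15. HMRA1 (YCR097W), the gene for the a1 regulator, whose sequence is the same at HMR and at the MATa locus, gave 0.24, 0.29 and 0.71 in the MATalpha type, which is below background, and 896 and 548 in the MATa type. It was at least 80.5-fold lower in the MATalpha type, computed against the background level of each MATalpha-type array. The HMRA2 (YCR096C) probe set matches related sequences too, and it was present in both types, with 1603, 1316 and 1105 in the MATalpha type and 479 and 587 in the MATa type, a log2 difference of 1.32 ± 0.17. The alpha2 genes and the alpha1 gene at MAT itself had no probe set named in the annotation used.

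The 2 deletion strains give the same contrast of mating types with group means from other arrays, although all 14 arrays share 1 estimate of the spread in the fit, so that the count of 21 was 18 without either set1 deletion array and 23 without jhd2 deletion replicate 3. Between jhd2 deletion and set1 deletion 276 of 5415 genes (5.1%) were called, 77 of them higher (1.42%) and 199 lower (3.67%) in the jhd2 deletion. Quantile normalization gave 143 higher and 148 lower. Of the 21 genes called between the wild types, 18 (85.7%) were called in the same direction between the deletions and 0 in the opposite direction, and those 18 are 6.52% of the 276. The 18 include all 15 mating genes, whose levels mark the types, so that part of the share is a description only. Among the other called genes YNL146C-A, YNL146W and SRX1 passed between the deletions, and PCK1, ADH2 and GEX1 did not. The deletion strains also differ in SET1, JHD2, LYS2 and MET15, and same-numbered arrays of 1 experiment deviated together, with correlations over genes of 0.62 to 0.69 in the JHD2 deletion experiment and 0.73 in the SET1 experiment. The 276 rest on few arrays, with 61 without set1 deletion replicate 1, 63 without set1 deletion replicate 2, 139 without jhd2 deletion replicate 1 and 162 without jhd2 deletion replicate 2.

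The difference between the wild types and that between the deletions were tested against each other, and 4 genes (0.0739%) passed. For SET1, JHD2 and MET17 these are the deleted genes and the met15 marker of the deletion strains. The only mating gene among them was AFB1, with signals of 3252, 2876 and 2828 in the jhd2 deletion, against 140.2 and 163 in the set1 deletion, and a log2 difference of 4.30 ± 0.11 there, against 2.99 ± 0.11 between the wild types. The 2 differences were apart by -1.31 ± 0.16 (limma, adjusted p = 0.00291). AFB1 was lower in the set1 deletion than on either MATa-type wild-type array. The AFB1 difference of differences passed in all 28 fits that hold these 4 groups, at -1.42 to -1.15.

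The other 14 mating genes did not pass this test without a block for pairs. Since same-numbered arrays of an experiment deviated together, the test was repeated with each such pair as a block, a setting chosen after seeing the data, and 10 genes passed, among them the earlier 4 and MF(ALPHA)1. MF(ALPHA)1 had 6529, 6919 and 5932 in the jhd2 deletion and 28.4 and 24.1 in the set1 deletion, and both set1 deletion arrays lay above both MATa-type wild-type arrays. Its 2 differences were apart by 0.92 ± 0.14 with the pair block (limma, adjusted p = 0.0452) and by 0.92 ± 0.17 without it (limma, adjusted p = 0.0883). MF(ALPHA)2 was apart by 0.99 ± 0.19 with the pair block (limma, adjusted p = 0.0855) and HMLALPHA1 by -0.81 ± 0.18 (limma, adjusted p = 0.123), and these passed only with the pair as a random block (limma, adjusted p = 0.0274 and 0.0479), where 32 genes did. On both set1 deletion arrays HMLALPHA1 was below background, so the size of its value is not exact. The 2 alpha-factor genes were dim in the SET1 experiment, so small shifts in signal weigh heavily there. With 32 added to each signal and no block, MF(ALPHA)1 was apart by 0.25, MF(ALPHA)2 by 0.38 and HMLALPHA1 by -0.17. None of them passed in that fit. Between the deletions HMRA1 was at least 63.3-fold lower and HMLALPHA1 at least 97.4-fold higher in the jhd2 deletion, against background levels, and the differences of the remaining mating genes ran from -6.39 ± 0.24 for MFA2 to 7.95 ± 0.12 for MF(ALPHA)1.

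**Figure D3:**
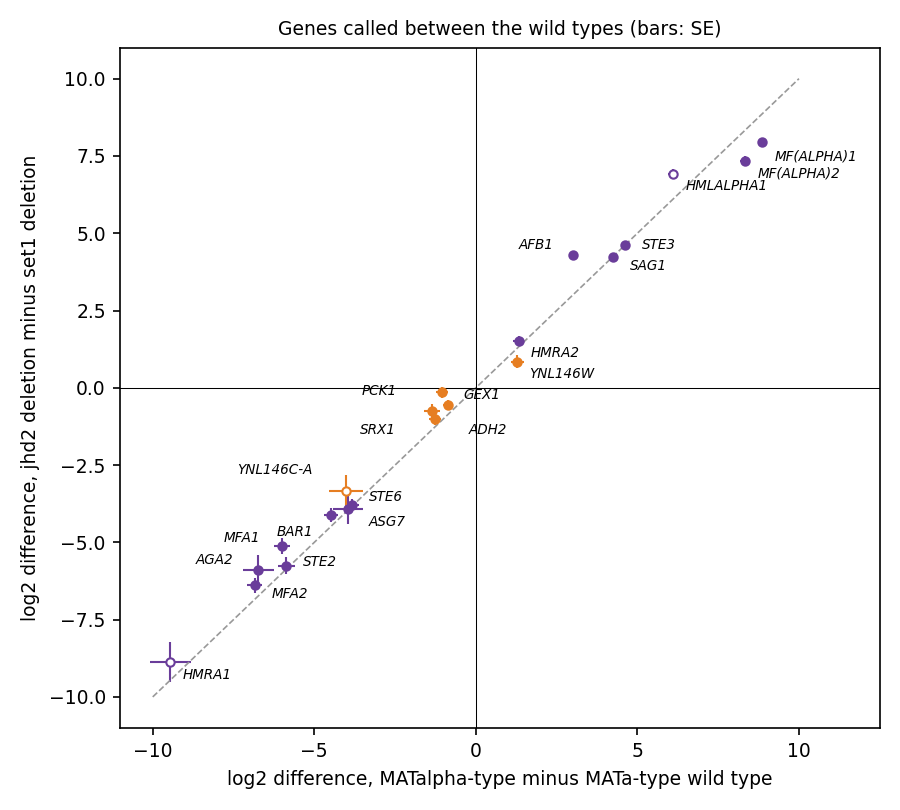
Log2 differences of the 21 called genes between the MATalpha-type and MATa-type wild types (horizontal) and between the jhd2 and set1 deletions (vertical), with bars of 1 SE, mating genes in purple, others in orange and open points for genes with a group wholly below background, whose position is not exact. Most points lie near the dashed line of equal differences, AFB1 lies above it at 2.99 and 4.30, and GEX1 lies near 0 on the vertical axis at -0.15.

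When the 10 arrays of the MATalpha-type groups were set against the 4 arrays of the MATa-type groups, 206 genes (3.8%) had no overlap, 120 higher (2.22%) and 86 lower (1.59%). Of the 21 called genes, 17 were among them, and PCK1, SRX1, GEX1 and ADH2 were not. These arrays include the 5 that gave the calls, and 15 of the 17 are mating genes, so this is a description only. The distance between the nearest arrays of the 2 sides exceeded 1 log2 unit for 15 genes, which were the 12 a-specific and alpha-specific genes, HMLALPHA1, HMRA1 and YNL146C-A. It exceeded 0.5 for 19 genes, the other 4 being HMRA2 (0.91), FRE4 (0.72), YNL146W (0.62) and YGR273C. The last gene and FRE4 (YNR060W), a ferric reductase gene, were chosen after their values were seen. FRE4 had 92.6, 90.8 and 83.04 in the MATalpha-type wild type against 288 and 182 in the MATa-type wild type, a log2 difference of -1.37 ± 0.28 that did not pass between the wild types (limma, adjusted p = 0.066).

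A pair of uncharacterised open reading frames next to MFA2 were the called genes outside the mating lists that separated all arrays by type. In the gene order of assembly R64, YNL146W is the next protein-coding gene beside MFA2 and YNL146C-A the one after it. YNL146C-A had signals of 3.05, 8.27 and 7.5004 in the MATalpha-type wild type, all below background, against 117 and 73.95 in the MATa-type wild type, and was at least 10.7-fold lower in the MATalpha type (limma, adjusted p = 0.00209). It ran the same way as MFA2, and it was at 11.98 and 12.2 in the wild type of the overexpression experiment, which is of MATalpha type. Between the deletions it was at 5.01, 8.05 and 14.2 in the jhd2 deletion and 102 and 69.4 in the set1 deletion. Its call was lost under 2 of 27 alternative settings, with quantile normalization and in a fit to the 5 arrays alone, where the adjusted p reached 0.0584 at most.

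YNL146W ran against MFA2, with 148, 145 and 118 in the MATalpha type and 65.3 and 48.7 in the MATa type, a log2 difference of 1.28 ± 0.20 (limma, adjusted p = 0.0116). It was at 149, 111 and 126 in the jhd2 deletion and 70.03 and 72.4 in the set1 deletion (limma, adjusted p = 0.0344), and at 139 and 153 in the wild type of the overexpression experiment. All 10 arrays of MATalpha type thus lay above all 4 of MATa type. The call was lost under 6 of 28 settings, among them leaving out MATa-type replicate 2, MATalpha-type replicate 1 or MATalpha-type replicate 2, with an adjusted p of up to 0.453. LSM7 (YNL147W), an RNA-binding protein gene beyond this pair, gave 1625, 1345 and 1099 in the MATalpha type and 1204 and 883 in the MATa type, and its groups overlapped.

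The other neighbours of mating genes did not pass. Up to 2 protein-coding genes on each side of the 12 a-specific and alpha-specific genes were looked up in the order of R64, of which 41 were tested. YNL146C-A and YNL146W were the 2 that passed, and the other 39 had log2 differences of -0.76 to 0.89 that did not.

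The 4 remaining called genes were lower in the MATalpha type. SRX1 (YKL086W), which encodes sulfiredoxin, a repair enzyme of oxidised peroxiredoxins, had 76.5, 69.7 and 61.3 in the MATalpha type against 161 and 169 in the MATa type, a log2 difference of -1.26 ± 0.19 (limma, adjusted p = 0.00941). It was at 68.99, 84.01 and 61.9 in the jhd2 deletion and 138 and 148 in the set1 deletion, and that difference passed as well (limma, adjusted p = 0.0124). The wild type of the overexpression experiment, which is of MATalpha type, lay between these groups with 111 and 126, and its overexpression strain reached 149.8 and 123. The call was lost without MATa-type replicate 2 and under 5 of 28 settings in all, with an adjusted p of up to 0.314.

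PCK1 (YKR097W), the gene for phosphoenolpyruvate carboxykinase of gluconeogenesis, had 82.6, 75.7 and 110.2 in the MATalpha type against 226 and 225 in the MATa type, a log2 difference of -1.35 ± 0.25 (limma, adjusted p = 0.0398). ADH2 (YMR303C), the alcohol dehydrogenase that oxidises ethanol, had 83.9, 78.99 and 78.2 in the MATalpha type against 158 and 136 in the MATa type, a log2 difference of -0.87 ± 0.16 (limma, adjusted p = 0.0446). In the MATalpha-type wild type of the overexpression experiment, PCK1 was at 269 and 177 and ADH2 at 164 and 158, so ADH2 was at or just above the higher MATa-type array there and PCK1 on both sides of the MATa type. GEX1 (YCL073C), a glutathione exchanger gene read by a probe set that matches related sequences, had 79.5, 78.1 and 69.95 in the MATalpha type against 167 and 144 in the MATa type, a log2 difference of -1.04 ± 0.18 (limma, adjusted p = 0.0257). Between the deletions these 3 genes differed by -0.76 ± 0.25, -0.55 ± 0.16 and -0.15 ± 0.18 in the order PCK1, ADH2 and GEX1, and did not pass (limma, adjusted p = 0.103, 0.0743 and 0.697).

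These 3 calls were sensitive to single arrays. Leaving out 1 array ended the call of PCK1 for 8 of the 14 arrays, of GEX1 for 9 and of ADH2 for 13, MATa-type replicate 2 being among them for each gene. Over 28 settings the adjusted p reached 0.367 for PCK1, 0.558 for GEX1 and 0.691 for ADH2, while the sign of the difference was kept. Each of the 4 genes thus separated the wild types compared without separating all arrays of MATalpha type from those of MATa type.

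**Figure D4:**
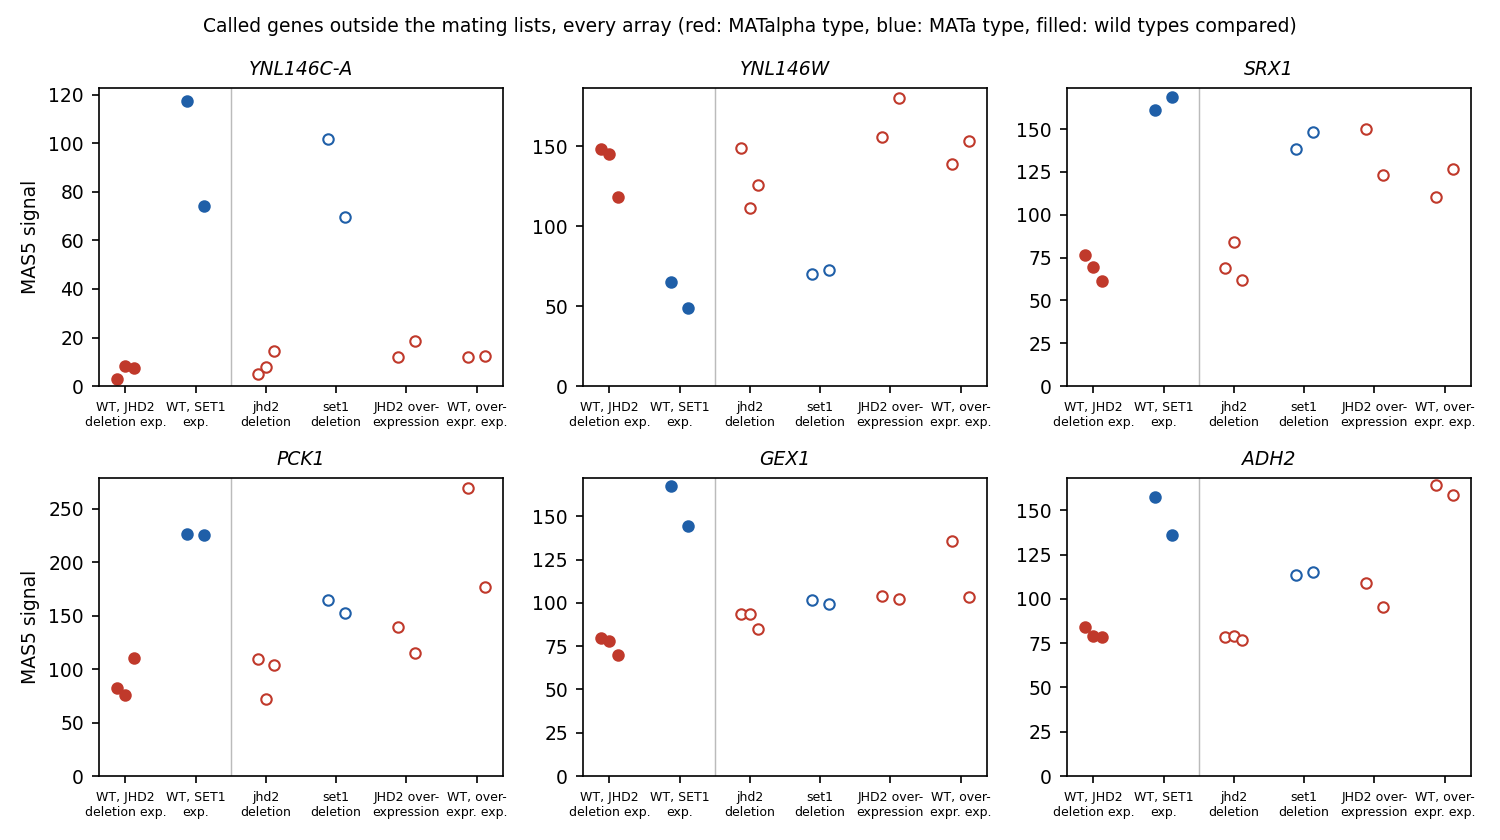
MAS5 signal (linear axes from 0) of the 6 called genes outside the mating lists on all 14 arrays, with arrays of MATalpha type in red, arrays of MATa type in blue and the 5 wild-type arrays compared as filled circles left of the grey line. YNL146C-A and YNL146W keep the 2 types apart in every group, while PCK1, SRX1, GEX1 and ADH2 are higher in the wild type of the overexpression experiment than in the MATalpha-type wild type.

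Genes of the pheromone response that both mating types use were expressed in both groups. STE4 (YOR212W), the G-protein beta subunit, had 1633, 1787 and 2066 in the MATalpha type and 1789 and 1509.9 in the MATa type. GPA1 (YHR005C), the alpha subunit, had 1128, 1246 and 1568 in the MATalpha type and 1141 and 837 in the MATa type, and for both genes the groups overlapped. Of 13 haploid-specific genes, 12 had positive differences with a median of 0.19, 0 were called, and 5 had higher, not overlapping groups, against 13.1% of all genes. The genes FUS3, STE5, STE12, STE18, RME1, NEJ1 and AXL1 differed by -0.17 to 0.37. The median of the list was 0.29 without MATa-type replicate 1 and 0.10 without MATa-type replicate 2.

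The widest differences in this list were those of HO, FAR1, SST2 and RDH54. HO (YDL227C), the endonuclease of mating-type switching, had 517, 991 and 965 in the MATalpha type against 513 and 207 in the MATa type, a difference of 1.28 ± 0.40 that did not pass (limma, adjusted p = 0.219). FAR1 (YJL157C), which arrests the cell cycle after pheromone, had 693, 1004 and 947 in the MATalpha type against 595 and 349 in the MATa type (0.93 ± 0.26, limma, adjusted p = 0.173). The level of both genes on MATa-type replicate 2 was the lowest of the 5 arrays. SST2 (YLR452C), the regulator that turns the G protein off, had 851, 901 and 651 in the MATalpha type against 537 and 462 in the MATa type (0.67 ± 0.19, limma, adjusted p = 0.185), and RDH54 (YBR073W), a recombination gene, had a log2 difference of 0.50 ± 0.14. SST2 passed between the deletions, with a log2 difference of 1.34 ± 0.19 (limma, adjusted p = 0.00186).

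Pheromone-induced genes had no common direction. Of 20 tested, 10 had positive and 10 negative differences, with a median of -0.06, and the 1 called was ASG7, which also belongs to the a-specific list. The groups did not overlap for 6 genes that were higher, against 13.1% of all genes, and 7 that were lower, against 12.9%. FUS1 (YCL027W), a cell fusion gene, had 362, 398 and 351 in the MATalpha type against 229 and 221 in the MATa type, a log2 difference of 0.72 ± 0.14 that missed the threshold (limma, adjusted p = 0.0597). AGA1 (YNR044W), the anchor subunit of a-agglutinin, had 894, 889 and 635 in the MATalpha type against 364 and 516 in the MATa type (0.88 ± 0.19, limma, adjusted p = 0.0833). Both were higher on all 10 arrays of MATalpha type than on the 4 of MATa type, and both passed between the deletions, at 1.07 ± 0.14 and 1.70 ± 0.19 (limma, adjusted p = 0.000999 and 0.000269). PRM10 (YJL108C), a pheromone-regulated membrane protein gene, had 243, 158 and 225 in the MATalpha type and 401 and 334 in the MATa type (-0.84 ± 0.27, limma, adjusted p = 0.23). Of 20 genes of the MAP kinase cascade and of pheromone processing, 0 were called and the median was -0.05.

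None of the 4 sporulation markers was called. IME1, the inducer of meiosis, had 230.4, 243 and 109.6 in the MATalpha type and 233 and 262 in the MATa type. SPO11, which makes the meiotic DNA breaks, had 43.5, 37.3 and 28.4 in the MATalpha type and 38.8 and 46.8 in the MATa type, and SPS4, a sporulation gene, had 36.8, 53.6 and 34.8 in the MATalpha type and 33.3 and 45.7 in the MATa type. NDT80, the regulator of middle sporulation genes, had 76.1, 64.5 and 55.8 in the MATalpha type and 88.5 and 98.9 in the MATa type and did not overlap. Of 34 meiosis and sporulation genes 32 had negative differences, 18 did not overlap and were lower, against 12.9% of all genes, and 0 were called. The median was -0.50, with REC8, the meiotic cohesin gene, at -1.05 ± 0.35 and CRR1, a spore-wall gene, at -0.88 ± 0.30. The list was dim, with median signals of 40.3, 38.9 and 35.9 in the MATalpha type and 48.9 and 56.6 in the MATa type. The fission yeast probe sets, which are far dimmer, with median signals of 1.86 to 2.67 on these arrays, had a median difference of -0.18. Quantile normalization brought the list to -0.08. Between the deletions the list median was -0.88, and 5 of its genes were called lower in the jhd2 deletion, against 3.67% of all genes.

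None of the tested auxotrophic markers was called. MET17 (YLR303W), also called MET15, had 2833, 2858 and 2865 in the MATalpha type and 3528 and 3514 in the MATa type, and ADE2 had 2452, 2249.6 and 2952 in the MATalpha type and 2819 and 2583 in the MATa type. LEU2 had 28.6, 27.6 and 5.82 in the MATalpha type and 21.1 and 18.6 in the MATa type, and LYS2 had 7.31, 8.29 and 6.704 in the MATalpha type and 10.02 and 2.94 in the MATa type. Both genes were low on all 5 arrays, as was URA3, which failed the filter on dim genes. In the overexpression experiment LEU2 was at 6895 and 6823 in the JHD2 overexpression strain and at 6875 and 7294 in its wild type. That wild type thus differed from the other wild types in LEU2 signal although it shares their genotype label, and the reason was not tested. HIS3 gave 1669, 1693 and 1408 in the MATalpha type and 2316 and 1782 in the MATa type although the label lists his3∆1, and the labels do not say where its probe set lies relative to the altered part. SET1 had 627, 636 and 549 in the MATalpha type and 575 and 395 in the MATa type and was not called, nor was JHD2, with 138, 119 and 139.8 in the MATalpha type and 161 and 147 in the MATa type. The log2 differences were -0.30 ± 0.32 for MET17, 0.34 ± 0.34 for SET1 and -0.22 ± 0.41 for JHD2. These SE include the spread of deletion arrays below background, so the lack of a call does not show equal levels in the wild types. For MET17 and JHD2 the wild types did not overlap, as for 26% of all genes.

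Beyond mating, the medians of several lists depended on which MATa-type array was used. General stress and storage carbohydrate genes had a median difference of -0.32 over 39 genes, with 35 negative and 0 called. In this list 2 genes did not overlap and were lower, against 12.9% of all genes. The list's median signals were 1276, 546 and 745 in the MATalpha type and 639 and 2089.8 in the MATa type. In the overexpression experiment, of MATalpha type, list medians were 2449 and 2074 in the JHD2 overexpression strain and 1977 and 1882 in its wild type. All of these were above MATa-type replicate 1. MATa-type replicate 2 was higher than replicate 1 for 38 of the 39, by a median of 1.60, and the median difference between the types was -1.12 without replicate 1 and 0.31 without replicate 2. HSP12 (YFL014W), a small heat-shock protein gene of stationary cells, had 632, 361 and 730.4 in the MATalpha type and 809 and 2809.8 in the MATa type (-1.45 ± 0.52, limma, adjusted p = 0.276), and SSA3, an Hsp70 gene, had a log2 difference of -0.42 ± 0.24. HSP12 was above both MATa-type arrays in the overexpression experiment, at 5699 and 5665 in the strain and 5656 and 5589 in its wild type.

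Glucose-repressed carbon genes, which cells use for growth on other carbon sources, leaned lower in the MATalpha type as a whole list. All 31 tested had negative differences, with a median of -0.56, 13 did not overlap and were lower in the MATalpha type, against 12.9% of all genes, and 2 were called, PCK1 and ADH2. The median signals were 82.6, 75.7 and 76.3 in the MATalpha type and 81.5 and 153 in the MATa type. The list median on MATa-type replicate 1 lay within the range of the MATalpha type, but gene by gene 24 of the 31 were still lower in the MATalpha type against that array alone, with a median difference of -0.24, and the median was -0.93 against replicate 2 alone. In the wild type of the overexpression experiment, also of MATalpha type, the list medians of 216 and 169.7 were above both MATa-type arrays. YAT1 (YAR035W), a carnitine acetyltransferase gene, had 147, 164 and 105 in the MATalpha type against 260.5 and 290.4 in the MATa type (-1.01 ± 0.21, limma, adjusted p = 0.0748). JEN1 (YKL217W), the lactate transporter gene, had 39.5, 30.6 and 54.4 in the MATalpha type against 68.5 and 264 in the MATa type (-1.74 ± 0.46, limma, adjusted p = 0.166), and the level on MATa-type replicate 1 was closer to the MATalpha type than to replicate 2.

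Ribosome biogenesis and G1/S genes had mostly positive differences, and cytosolic ribosomal protein genes mostly negative ones. Ribosome biogenesis genes were positive in 77 of 84 cases, with a median of 0.29, 27 not overlapping and higher, against 13.1% of all genes, and 0 called. The median signals were 1560.5, 1687 and 1598 in the MATalpha type and 1514 and 1168 in the MATa type, and MATa-type replicate 2 was higher than replicate 1 for 2 of the 84. The median was 0.44 without MATa-type replicate 1 and 0.09 without replicate 2. In the overexpression experiment, also of MATalpha type, list medians were 1136 and 1122 in the JHD2 overexpression strain and 1425 and 1276 in its wild type. All of these were below MATa-type replicate 1. RRP12, a pre-ribosome export gene, had 2303, 2582 and 2266 in the MATalpha type and 1834 and 1659 in the MATa type (0.45 ± 0.11, limma, adjusted p = 0.142), and UTP4, for small-subunit processing, had a log2 difference of 0.56 ± 0.16. G1/S and S-phase genes had a median of 0.30, with 26 of 28 positive and 0 called, and of 0.41 without MATa-type replicate 1 and 0.15 without replicate 2, with TOS4 at 0.63 ± 0.15 and CTF18 at 0.69 ± 0.21. Their list medians were 403 and 496 in the JHD2 overexpression strain and 502 and 464 in its wild type, against 534 and 421 in the MATa type. Cytosolic ribosomal protein genes were negative in 101 of 128 cases, with a median of -0.11, 12 not overlapping and lower, against 12.9% of all genes, and 0 called. Quantile normalization turned that median to 0.01, and it was -0.03 without MATa-type replicate 1 and -0.20 without replicate 2. Why MATa-type replicate 2 differed was not tested.

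The medians of nitrogen, sulfur and mitochondrial ribosome lists moved less with the choice of MATa-type array. Nitrogen catabolite genes, which take up and break down poor nitrogen sources, had a median of -0.41 over 30 genes, with 26 negative, 15 not overlapping and lower, against 12.9% of all genes, and 0 called, and the median was -0.46 to -0.35 over 28 alternative settings. Median signals were 228, 205 and 175 in the MATalpha type and 269 and 237 in the MATa type, without overlap. The overexpression experiment, also of MATalpha type, lay on the opposite side, with list medians of 389 and 359 in the JHD2 overexpression strain and 492 and 450.3 in its wild type, above both MATa-type arrays. UGA4, the permease for gamma-aminobutyrate, had 93.4, 101 and 104 in the MATalpha type against 159 and 158 in the MATa type (-0.68 ± 0.17, limma, adjusted p = 0.156), and CAR1, arginase, had 1776, 2202 and 2461 in the MATalpha type against 2949 and 3541 in the MATa type (-0.60 ± 0.15, limma, adjusted p = 0.156). Unlike the list median, both genes, named for their small p, separated the 10 arrays of MATalpha type from the 4 of MATa type, and both passed between the deletions, at -0.77 ± 0.17 and -0.58 ± 0.15 (limma, adjusted p = 0.0239 and 0.0476).

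Sulfur and methionine genes had a median of -0.25 over 32 genes, with 27 negative and 16 not overlapping and lower, against 12.9% of all genes, and of -0.31 to -0.19 over the 28 settings. MET2, for the first step from homoserine to methionine, had 65.7, 86.2 and 111 in the MATalpha type against 164 and 266 in the MATa type (-1.28 ± 0.32, limma, adjusted p = 0.159), and MET10, a sulfite reductase subunit gene, had a log2 difference of -0.48 ± 0.13. Neither passed, and 0 genes of the list were called. The overexpression experiment, of MATalpha type, lay on the opposite side here too. Its list medians were 1581 and 1342 in the JHD2 overexpression strain and 1432 and 1604 in its wild type. Those of the MATa-type wild type were 601 and 560, and MET2 and MET10 were also higher in the overexpression experiment than in the MATa type. Mitochondrial ribosomal protein genes were positive in 54 of 67 cases, with a median of 0.20, 25 not overlapping and higher, against 13.1% of all genes, and of 0.13 to 0.27 over the settings.

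**Figure D5:**
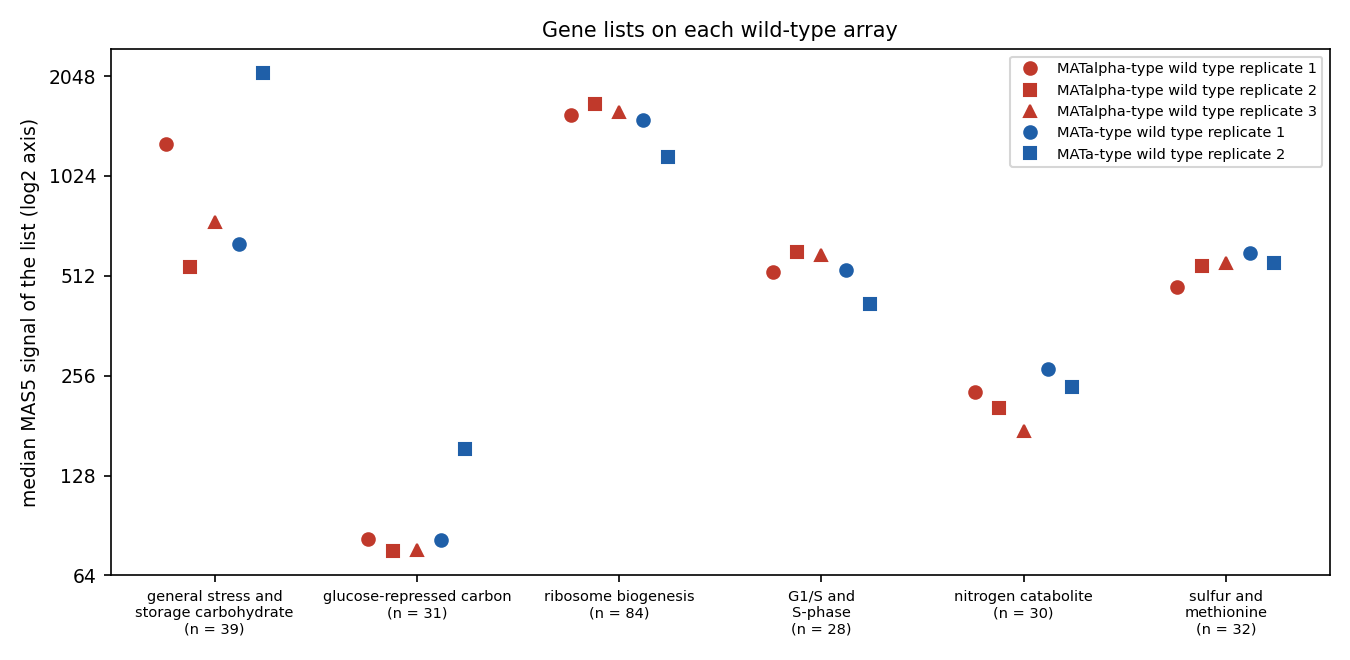
Median MAS5 signal (log2 axis) of 6 gene lists on each of the 5 wild-type arrays, with MATalpha-type arrays in red and MATa-type arrays in blue and the marker shape giving the replicate. MATa-type replicate 2 is the highest array for stress and glucose-repressed genes and the lowest for ribosome biogenesis and G1/S genes, while for nitrogen catabolite genes both MATa-type arrays lie above all 3 MATalpha-type arrays.

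Iron, hexose transport and glycolysis lists lay below 0 with 1 called gene between them, ADH2. Iron regulon genes had a median of -0.30 over 30 genes, and of -0.07 without MATa-type replicate 1 and -0.47 without replicate 2. ISU1, a scaffold gene for iron-sulphur clusters, had 963, 1156 and 824 in the MATalpha type against 1496 and 1671 in the MATa type (-0.70 ± 0.16, limma, adjusted p = 0.113). In the overexpression experiment, also of MATalpha type, ISU1 was above both MATa-type arrays, at 2120 and 2175 in the JHD2 overexpression strain and 2336 and 2849 in its wild type. The iron list medians there, 570 and 377 in the strain and 467 and 411 in its wild type, lay below the 642 and 626 of the MATa type. Hexose transporter and sensor genes had a median of -0.27 over 18 genes, and of -0.51 without MATa-type replicate 1 and -0.09 without replicate 2, with HXT2, a glucose transporter gene, at -0.56 ± 0.17 and the dim HXT10 at -1.30 ± 0.45. In the overexpression experiment the hexose list medians were 328 and 336 in the JHD2 overexpression strain and 400 and 336 in its wild type. All of these were above the 170 and 241 of the MATa type. HXT2 was at 4039 and 4078 in that wild type, against 3978 and 4844 in the MATa type. In the overexpression strain HXT2 was at 2760 and 1883. Glycolysis and fermentation genes had a median of -0.25 over 23 genes, 20 of them negative, and quantile normalization brought it to -0.11. TDH3, glyceraldehyde-3-phosphate dehydrogenase, had a log2 difference of -0.32 ± 0.15, ADH1, the fermentative alcohol dehydrogenase, one of -0.30 ± 0.14, and PDC6, a minor pyruvate decarboxylase gene, one of -0.77 ± 0.34, with overlapping groups for each.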

How the data were processed

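The labels give 10 µg of total RNA for each sample, and Affymetrix Yeast 2 arrays were used. The authors deposited 1 linear intensity for each probe set, computed with MAS5 per the submitters' processing notes. Neither its version nor its scaling target is given in the sources used here. Samples were grouped by the labels. Of 10928 probe sets 5498 matched 1 S. cerevisiae gene through the platform annotation and the RefSeq table of assembly R64 (5449 genes), 1746 belonged to fission yeast and 3683 had no name there. The brightest probe set per gene was used. Values under 1 were set to 1 and put on the log2 scale. A gene was tested if its mean exceeded the 95th percentile of the fission yeast means, which left 5415 genes, 112 of them with a probe set that also matches related genes.

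A model of 6 group means over the 14 arrays was fitted with limma 3.58.1 in R 4.3.3, using eBayes with a trend on intensity (8 residual and 4.12 prior degrees of freedom). Tests are two-sided, Benjamini-Hochberg adjustment runs over the 5415 genes, and a gene is called at an adjusted p under 0.05. Differences are MATalpha type minus MATa type with the SE of the fit. "Not overlapping" means that every array of 1 group lay above every array of the other. The 3'/5' ratio is the mean over 7 control genes. The fit was tested on simulated data.

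The members and the 46 gene lists were chosen with earlier results of these data known, and the lists are described without a test. Named are the members of the mating and marker lists, SET1 and JHD2, up to 12 called genes in each direction outside the mating lists, up to 4 members of each list with a called gene, the 2 with the smallest p of lists of 8 or more whose median lay over 0.25 from that of all genes, and the haploid and sporulation markers. Alternatives were quantile normalization, median centring, log2(signal + 32), 2 other filters, no trend, array weights, fits to fewer arrays, replicate and random blocks, the mean of probe sets, stricter thresholds, and leaving out each array. Leaving out both replicate 2 arrays of the SET1 experiment, a covariate for the 3'/5' ratio, and a block for same-numbered arrays of an experiment in the test of the 2 differences were added after seeing the data. The number of arrays limits the precision.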

Additional observations from a re-analysis of the deposited data

Results flagged for a closer look

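For 4 genes the difference between the wild types departed from that between the jhd2 and set1 deletions in a test of the 2 differences against each other. For SET1, JHD2 and MET17 a deletion strain was below background on each of its arrays, so that only a bound can be given. With those arrays set to their background, the differences were apart on the log2 scale by -5.63 or further from 0 for SET1, 3.75 or further for JHD2 and -8.40 or further for MET17. These are the genes deleted in, or listed as a marker allele of, a deletion strain. For AFB1, the barrier gene against a-factor, it was apart by -1.31.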

How the results depend on the processing

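All 15 mating genes kept their sign under each setting in which they were measured and passed in each, except HMRA2, which did not pass in the fit to the 5 arrays alone. The levels of the mating genes name the types, so this is a description only. The count of 21 called genes was 18 with quantile normalization, 24 with median centring, 16 with the stricter filter (8 lower), 14 in the fit to the 5 arrays alone (8 lower), 63 with the replicate block (26 higher, 37 lower) and 65 with the 3'/5' covariate (27 higher, 38 lower), a setting chosen after seeing the data. The 63 and the 65 include all 21. Leaving out 1 array gave 17 to 224 calls, 7 to 143 higher and 10 to 81 lower. Deviations of same-numbered arrays of the 2 wild types correlated at -0.39 and -0.16 over genes, so the numbers do not pair these groups.

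Between the deletions the count of 276 was 1324 with array weights (534 higher, 790 lower), 90 in the fit to those arrays alone (18 and 72), 573 with the replicate block (210 and 363), 82 at an adjusted p under 0.01 (16 and 66) and 119 with a difference over 1 as well (17 and 102). Quantile normalization gave 143 higher and 148 lower in place of 77 and 199, and the stricter filter gave 123 lower. Leaving out 1 array gave 61 to 359 calls, 17 to 111 higher and 40 to 250 lower. For the test of the 2 differences against each other, the count of 4 was 10 with the pair of experiment and number as a replicate block, which included the 4, 32 with it as a random block, and 4 to 8 with 1 array left out. The causes of these shifts were not tested.

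Signs turned for 7 named genes that were not called. STE18 was at 0.15 with array weights, 0.24 with the replicate block and 0.0047 with the 3'/5' covariate, and SPO11 was at 0.24 with quantile normalization. Leaving out 1 array put STE18 at -0.51 to 0.24, STE5 at -0.014 to 0.18, NEJ1 at -0.12 to 0.27, AXL1 at -0.078 to 0.28, RME1 at -0.068 to 0.43 and SPS4 at -0.16 to 0.30. Leaving out both replicate 2 arrays of the SET1 experiment gave STE5 -0.014, NEJ1 -0.12 and AXL1 -0.078. Signals near background limit the a-specific genes in the MATalpha type and the dim lists.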

Other observations

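Of 46 gene lists, 2 had a called member outside the mating lists, the glucose-repressed and the glycolysis and fermentation genes. Among lists not described above, G2/M and M/G1 genes had a median of 0.23 over 34 genes, with 27 positive and 9 not overlapping and higher, against 13.1% of all genes, and kept 0.17 to 0.29 over 28 settings. Cell wall integrity genes were at -0.18 over 27 genes, thiamine genes at -0.24 over 15, amino acid control genes at -0.16 over 21 and zinc-responsive genes at -0.15 over 16. Proteasome, histone, purine, serine and DNA damage genes had medians of 0.00 to 0.02. Respiratory chain genes were at -0.02 over 40 genes, with 0.19 without MATa-type replicate 2 and -0.14 without replicate 1. Silencing factors, which keep the HML and HMR cassettes off, were at 0.14 over 17 genes and at -0.04 without MATa-type replicate 2, and COMPASS subunit genes with JHD2 were at 0.20 over 9 genes and at -0.03 without that array.

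Leaving out MATa-type replicate 1 leaves 1 array in that group, so only sizes are given for that fit. List medians were then 0.44 for ribosome biogenesis genes, -0.93 for glucose-repressed genes, -1.12 for stress genes and -0.36 for nitrogen catabolite genes. Without replicate 2 they were 0.09, -0.24, 0.31 and -0.38 in that order. Each of these values rests on 1 MATa-type array. Between the MATa-type arrays themselves, replicate 2 was above replicate 1 by a median of 0.79 for glucose-repressed genes, 0.42 for hexose transport genes and 0.31 for respiratory chain genes, and below it by -0.37 for ribosome biogenesis and -0.38 for COMPASS genes with JHD2, against -0.05 for all genes.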
